A study of Mus musculus with 12 samples.

Results

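The circadian clock genes of the mouse heart were followed across 12 hearts in 4 groups. The 10 genes, Arntl, Npas2, Per1, Per2, Per3, Cry1, Nr1d1, Nr1d2, Dbp and Ciart, were chosen by gene symbol from the 55885 genes listed, and all 10 were among the 13815 genes tested. RNA from cardiac tissues was sequenced after weekly intraperitoneal injections, and expression was deposited as TPM, a transcript abundance that allows for gene length and has a fixed total in each heart. Read numbers cannot be had from it, so the depth of the values is unknown. All mice were males of the C57BL/6 strain per the labels, and C57BL/6J per the methods, and were 8 weeks old, with 3 hearts in each group. The Saline group was wild type without cisplatin, and the CDDP group was wild type with cisplatin (CDDP), a platinum drug used against tumors, at 6 mg/kg on days 1, 8 and 15. The STING-/- group carried a loss of the Tmem173 gene, which encodes the DNA-sensing adaptor STING, and had no cisplatin. The STING-/-+CDDP group had the same genotype and the same cisplatin schedule. Hearts were taken on day 22 under anesthesia after echocardiography. The hour of collection and the light schedule are not given in the sources used here, so for genes that cycle over the day a difference in collection time and a difference between groups cannot be told apart. The deletion is in every cell of the body, and the tissue was whole heart, in which fewer cells of a type and less RNA per cell cannot be told apart. Sting1 (Tmem173) was listed at a TPM between 2.87 and 5.96 in the 6 STING-/- and STING-/-+CDDP hearts and between 5.62 and 22.11 in the 6 wild-type hearts, so its transcripts alone do not separate every heart by genotype.

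The clock is a loop of transcription factors that runs in nearly every cell. ARNTL (BMAL1), paired with CLOCK or its relative NPAS2, binds E-boxes and switches on the Per and Cry genes, the REV-ERB genes Nr1d1 and Nr1d2, Ciart and the output gene Dbp. PER and CRY proteins then block the pair, and REV-ERB proteins repress Arntl and Npas2 at ROR elements, so over a day Arntl and Npas2 run nearly opposite to Nr1d1 and Dbp, with the Per genes peaking after Dbp and Cry1 later still. In the heart this loop is known to time metabolism, ion channel expression and contractile function.

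The promoters of the clock genes were read for the letters of the motifs named above, and an E-box stood in those of 3 of 9 genes. RefSeq windows (GRCm38.p6) from 250 bases before to 50 bases after a start were at hand for 9 of the 10 genes, and Per2 was the gene without an entry. The letters CACGTG (E-box), TTANGTAA (D-box, the site of DBP and its relatives) and AGGTCA (a ROR element core) were searched on both strands, and they are in capitals in the sequences. Each sequence is shown 5′ to 3′ on the gene's strand and stops where the first annotated exon begins. Ciart is shown for its 3 E-boxes, which start 116, 58 and 44 bases before its start at chr3:95882252-95882478 (minus strand).
Ciart: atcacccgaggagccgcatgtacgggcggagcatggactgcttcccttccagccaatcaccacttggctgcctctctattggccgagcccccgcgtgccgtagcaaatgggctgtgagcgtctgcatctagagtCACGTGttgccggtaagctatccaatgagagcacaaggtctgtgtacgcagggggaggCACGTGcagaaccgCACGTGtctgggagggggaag
Per1 is shown for an E-box 166 bases before one of its starts and a ROR element core, read on the opposite strand, at 137 bases, at chr11:69098699-69098947 (plus strand).
Per1: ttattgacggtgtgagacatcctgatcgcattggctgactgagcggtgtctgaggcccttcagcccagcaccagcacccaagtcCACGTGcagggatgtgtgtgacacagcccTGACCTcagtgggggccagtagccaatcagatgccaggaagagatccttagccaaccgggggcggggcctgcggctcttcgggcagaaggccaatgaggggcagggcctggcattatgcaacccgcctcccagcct
Cry1 is shown for an E-box 60 bases before its start at chr10:85185065-85185304 (minus strand).
Cry1: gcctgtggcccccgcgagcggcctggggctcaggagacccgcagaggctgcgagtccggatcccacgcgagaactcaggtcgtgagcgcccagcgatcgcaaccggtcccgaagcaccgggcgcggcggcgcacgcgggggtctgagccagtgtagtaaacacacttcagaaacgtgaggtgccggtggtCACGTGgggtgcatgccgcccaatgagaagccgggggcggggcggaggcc
Per3 is shown for the D-boxes 205 and 158 bases before its start at chr4:151044666-151044915 (minus strand).
Per3: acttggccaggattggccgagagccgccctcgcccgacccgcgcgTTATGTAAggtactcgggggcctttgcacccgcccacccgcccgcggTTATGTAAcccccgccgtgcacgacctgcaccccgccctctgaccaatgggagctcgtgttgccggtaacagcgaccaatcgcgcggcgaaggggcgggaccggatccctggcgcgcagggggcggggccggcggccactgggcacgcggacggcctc
An E-box stood in the windows of 3 of the 9 genes, Ciart, Per1 and Cry1, and in 7.15% of all 32851 windows. The D-box stood in the window of Per3 alone among the 9 and in 2.32% of all windows, and AGGTCA in those of Arntl, Per1 and Nr1d2 and in 16.3% of all. The variant core GGGTCA and the cyclic AMP element TGACGTCA were in 0 of the 9, against 13.7% and 1.79% of all windows. These matches describe letters within the windows and do not show binding.

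Several libraries stood apart before any comparison of groups. Saline heart 2 had a summed TPM of 38939 over the atrial genes Myl7, Nppa, Sln and Myl4, against 310.2 and 338.7 in Saline hearts 1 and 3. In the other groups this sum ran from 854 to 14621 in the CDDP group, from 2994 to 12835 in the STING-/- group and from 331 to 9025 in the STING-/-+CDDP group. Nppa was the most abundant of the 4 in every heart, and none of the 4 was at 0 in any heart. CDDP heart 1 had a summed TPM of 1093 over 5 neutrophil genes, led by S100a9, while the highest sum in the other hearts was 83.2, and Ly6g was at 0 in 5 hearts and Ngp in 1. None of the 3 neutrophil genes tested passed in CDDP against Saline, and all 3 had an unadjusted p under 0.05. Cardiomyocyte genes (Myh6, Tnnt2, Actc1, Ryr2, Tnni3 and Pln) summed to 15762 in CDDP heart 1, the lowest of the 12, and to between 22201 and 34932 in the other hearts, and 5 skeletal muscle genes to at most 2.74, as the label of cardiac tissue says. The calls of clock genes that change without Saline heart 2 or CDDP heart 1 are therefore given with and without them, as are several log2 fold changes that move.

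The genes of the positive arm had their lowest means in the STING-/- group, and their highest means, in the Saline group, rested on Saline heart 1. Arntl, the obligate partner of the pair (chr7:113207465-113314126, plus strand, GRCm38), had TPM of 13.0, 3.09 and 6.10 in Saline hearts 1, 2 and 3 and 1.87, 5.95 and 5.52 in the CDDP group. It had TPM of 1.46, 3.84 and 2.17 in the STING-/- group and 3.44, 8.28 and 3.08 in the STING-/-+CDDP group. Saline heart 1 was the highest of the 12 and STING-/- heart 1 the lowest, an 8.93-fold range, and each group held at least 1 heart within the range of every other group. Npas2 (chr1:39193731-39363236, plus strand) was at TPM of 3.33, 0.94 and 1.12 in the Saline group and 0.34, 1.30 and 1.05 in the CDDP group. In the STING-/- group it was at 0.33, 0.57 and 0.49, below every Saline heart, and in the STING-/-+CDDP group at 0.69, 1.80 and 0.93, above every STING-/- heart. The order of the group means was the same for both genes, Saline, STING-/-+CDDP, CDDP and STING-/-. Without Saline heart 1 the Saline means were 4.595 for Arntl and 1.03 for Npas2, below the 4.93 and 1.14 of the STING-/-+CDDP group, so the first place in this order turned on that heart. In each of the 4 groups the heart highest in Arntl was also the highest in Npas2. Clock, the other partner, varied less, from a TPM of 2.94 to 6.09, a 2.07-fold range.

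The Per genes, whose proteins accumulate and repress the pair, were low in Saline heart 1 and varied most between the wild-type hearts. Per1 (chr11:69095217-69109960, plus strand) had TPM of 8.71, 18.5 and 12.2 in the Saline group and 19.3, 28.2 and 29.1 in the CDDP group, so that the lowest CDDP heart exceeded the highest Saline heart. In the STING-/- group Per1 was at 22.8, 21.7 and 19.4, also above every Saline heart, and in the STING-/-+CDDP group at 22.5, 21.2 and 14.2. Per2 (chr1:91415982-91459324, minus strand) had TPM of 0.71, 8.36 and 4.95 in the Saline group and 5.20, 12.5 and 11.2 in the CDDP group, so these groups overlapped. Its TPM was 9.27, 7.83 and 8.00 in the STING-/- group and 11.3, 9.86 and 5.14 in the STING-/-+CDDP group. Per2 had the widest range of the 10 genes, 17.6-fold, which rested on the 0.71 of Saline heart 1. Per3 (chr4:151003652-151044665, minus strand), a weaker repressor than its relatives, ran from 1.96 in Saline heart 1 to 8.49 in Saline heart 2, so the whole range of the 12 hearts lay within the Saline group.

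Cry1 and Ciart, the other repressors, had their highest means in different groups. That of Cry1 was in the CDDP group, as for Per1 and Per2, and that of Ciart in the STING-/- group, as for Per3. Cry1 (chr10:85131700-85185064, minus strand), the strongest repressor of the pair, was at TPM of 6.79, 6.84 and 7.20 in the Saline group, a coefficient of variation of 3.22%, and at 7.78, 7.60 and 10.8 in the CDDP group. Its TPM was 4.83, 3.46 and 4.34 in the STING-/- group and 6.70, 5.39 and 4.03 in the STING-/-+CDDP group. All 6 hearts of STING-/- mice were therefore below all 6 wild-type hearts, although the highest of the former, 6.70, and the lowest of the latter, 6.79, were close. Ciart (chr3:95878503-95882251, minus strand), whose product CHRONO represses the pair by binding ARNTL, was at 0.93, 4.62 and 2.31 in the Saline group and at 2.99, 4.73 and 7.43 in the CDDP group. Its TPM was 13.2, 8.41 and 11.4 in the STING-/- group, above all other hearts, and 6.37, 2.96 and 2.77 in the STING-/-+CDDP group.

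The REV-ERB genes and Dbp were highest in the STING-/- group. Nr1d1 (chr11:98767932-98775333, minus strand), which encodes REV-ERB alpha, was at TPM of 13.6, 33.2 and 11.1 in the Saline group and 19.5, 17.4 and 34.3 in the CDDP group. Its TPM was 49.9, 83.5 and 61.5 in the STING-/- group, above all other hearts, and 29.2, 26.5 and 18.9 in the STING-/-+CDDP group. Nr1d2 (chr14:18204054-18239127, minus strand), which encodes REV-ERB beta, was at 10.1, 39.8 and 18.7 in the Saline group and 26.6, 28.7 and 38.7 in the CDDP group. It was at 40.5, 35.6 and 40.9 in the STING-/- group, a range that takes in Saline heart 2 and CDDP heart 3, and at 32.0, 18.9 and 16.8 in the STING-/-+CDDP group. Dbp (chr7:45705088-45710203, plus strand), a PAR bZIP factor that carries the rhythm to metabolic genes through D-boxes, was at 10.9, 81.1 and 14.3 in the Saline group and 11.0, 10.2 and 18.6 in the CDDP group. In the STING-/- group Dbp was at 115.1, 95.8 and 113.0, above all other hearts, and in the STING-/-+CDDP group at 43.3, 18.6 and 20.6. Saline heart 2, the heart with the high atrial sum, was the only heart outside the STING-/- group with a Dbp above 43.33. Of the exonic bases of Dbp, 539 of 2993 lie within exons of Sphk2 on the opposite strand, and for Nr1d1 263 of 3077 lie within Thra, and the use of strand in the counting is not given in the sources used here, so reads there cannot be told apart.

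**Figure D1:**
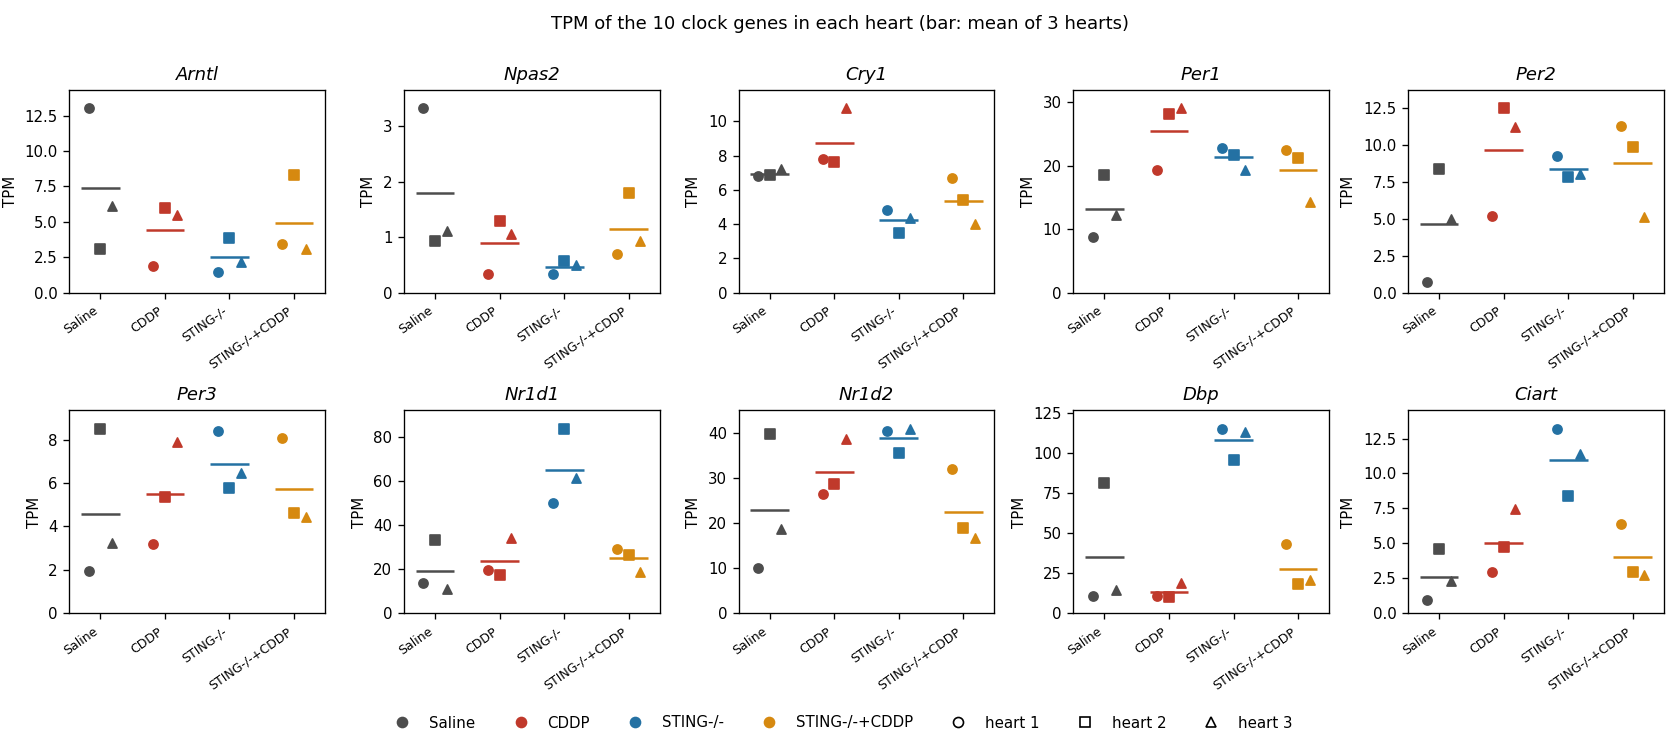
TPM (vertical axis, linear from 0, one panel per gene) of the 10 clock genes in the 4 groups (horizontal axis), with 1 point per heart, the heart's number as the marker shape and the mean of 3 hearts as a bar. Dbp, Nr1d1 and Ciart are highest in the 3 STING-/- hearts, and the Saline hearts are widely spread for every gene except Cry1.

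The spread between hearts of 1 group differed between groups for the clock genes. Over the 10 genes the median SD of log2(TPM + 1) was 0.83 in the Saline group, 0.47 in the CDDP group, 0.17 in the STING-/- group and 0.44 in the STING-/-+CDDP group. Over all 13815 genes the same median was 0.24, 0.29, 0.20 and 0.21. The Saline hearts thus had the widest spread for the clock genes but not for all genes. In Saline heart 1 Arntl and Npas2 were the highest of 12, and Per1, Per2, Per3, Nr1d2 and Ciart were the lowest of 12. In Saline heart 2 Arntl and Npas2 were the lowest of the group, and 7 of the other 8 genes, all but Cry1, were the highest of the group. Saline heart 3 took the position between them for most genes, with a Dbp near that of Saline heart 1. The 3 Saline hearts thus stood at different points of the opposition between the arms.

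The opposition between the arms did not hold in the same way in every group. CDDP heart 1 was the lowest of its group in Arntl and Npas2 and at the same time in Per1, Per2, Per3, Nr1d2 and Ciart. Its Cry1, Nr1d1 and Dbp were not the lowest of the group, and its Per1 was above every Saline heart. This was also the heart with the high neutrophil sum and the lowest cardiomyocyte sum, and a link to these sums was not tested. CDDP hearts 2 and 3 had Arntl of 5.95 and 5.52 together with Per1 and Per2 above all Saline hearts. In the STING-/- group Nr1d1, Dbp and Ciart were high in all 3 hearts, while Arntl was low in hearts 1 and 3 only. Heart 2, with the highest Nr1d1 of the 12, had an Arntl of 3.84, above that of Saline heart 2 and CDDP heart 1. Per2 in this group, between 7.83 and 9.27, was within the range of the other groups. In the STING-/-+CDDP group, heart 2 was the second highest of 12 in Arntl and Npas2, and heart 1 was the highest of its group in all 8 genes of the negative arm and output.

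**Figure D2:**
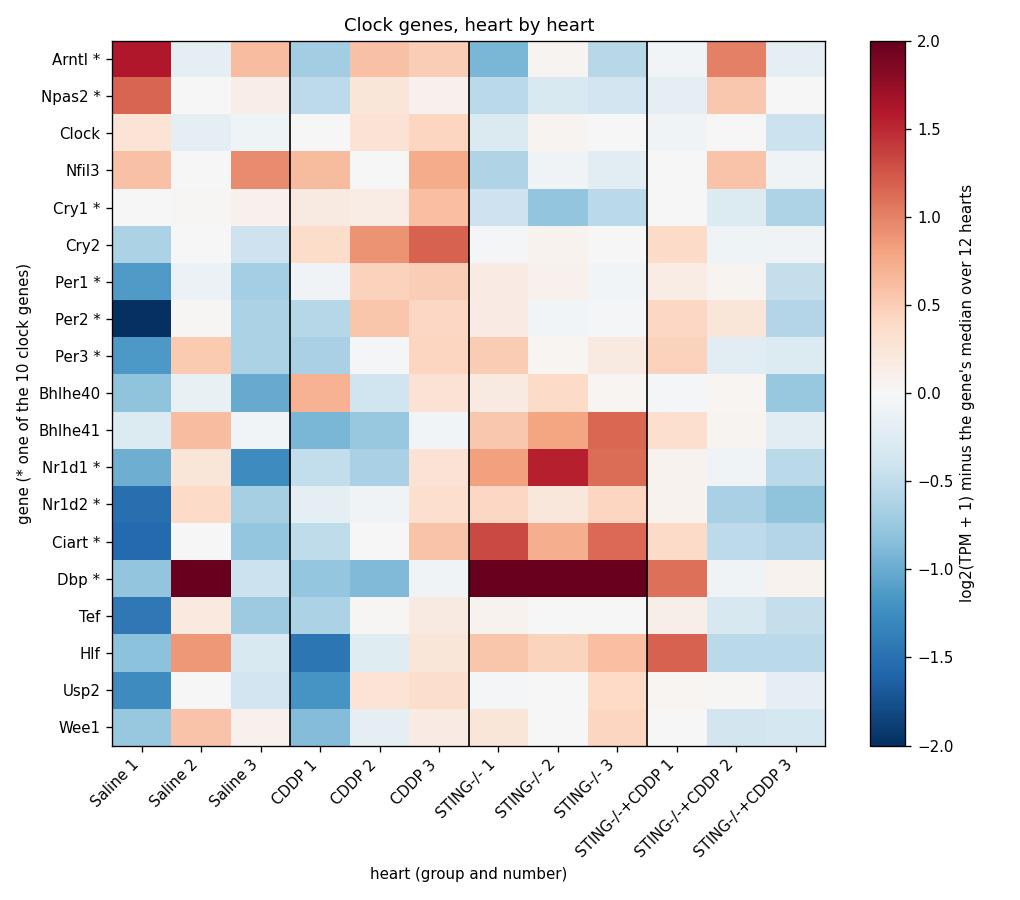
Log2(TPM + 1) minus the median over the 12 hearts (colour, ended at 2 and -2) for the 10 clock genes (rows marked with a star) and 9 further ones (other rows) in each heart (columns, by group and number). Saline heart 1 is red for Arntl and Npas2 and blue for the Per genes, Nr1d2, Ciart and Tef, and the STING-/- hearts are red for Nr1d1, Ciart and Dbp.

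Ratios within a heart, chosen after the values were seen and given without a test, place each heart without reference to the group mean. The positions differed between the ratios. The ratio of Dbp to Arntl in TPM was 0.837, 26.3 and 2.34 in Saline hearts 1, 2 and 3 and 5.89, 1.72 and 3.38 in the CDDP group. The STING-/- hearts had ratios of 78.8, 24.9 and 52.1, with 12.6, 2.25 and 6.69 in the STING-/-+CDDP group. Saline heart 2 thus lay among the STING-/- hearts on this ratio, and the other wild-type hearts lay below all of them. The ratio of Per2 to Dbp, a later and an earlier gene of the cycle, was 0.0651, 0.103 and 0.347 in the Saline group and 0.472, 1.22 and 0.603 in the CDDP group. The STING-/- hearts had values of 0.0806, 0.0818 and 0.0708, and the STING-/-+CDDP hearts 0.261, 0.530 and 0.249. On this ratio every heart with cisplatin was above every heart without it in each genotype, Saline heart 2 included. The ratio of Per1 to Dbp showed the same order, at 0.228 to 0.857 in the Saline group, 1.56 to 2.76 in the CDDP group, 0.172 to 0.227 in the STING-/- group and 0.520 to 1.14 in the STING-/-+CDDP group. Both ratios share Dbp, so they are not separate observations. With Nr1d1 in place of Dbp the wild-type groups overlapped, the ratio of Per2 to Nr1d1 being 0.0522, 0.252 and 0.448 in the Saline group and 0.267, 0.717 and 0.327 in the CDDP group. It was 0.0938 to 0.186 in the STING-/- group and 0.273 to 0.387 in the STING-/-+CDDP group, without overlap.

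**Figure D3:**
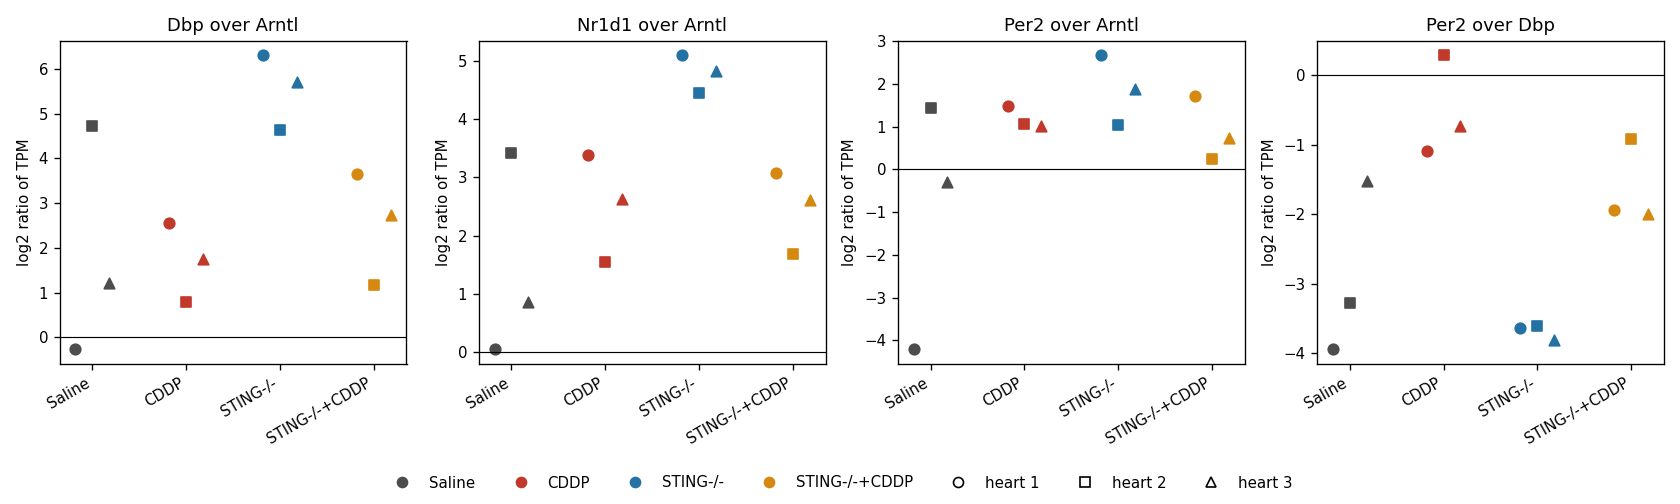
Log2 ratio of TPM between a pair of clock genes within each heart (vertical axis) in the 4 groups (horizontal axis), with 1 point per heart. The log2 ratio of Dbp to Arntl is between 4.64 and 6.30 in the STING-/- group and 4.71 in Saline heart 2, and the ratio of Per2 to Dbp is higher in the hearts with cisplatin in both genotypes.

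How closely the other genes followed Arntl was measured over the 12 hearts on the log2(TPM + 1) scale, with permutation p-values. Npas2 had a Pearson r of 0.94 with Arntl and a Spearman rho of 0.93, the highest r of the 13814 other genes tested. Its permutation p for r, 1e-05, is the smallest that 100000 permutations can give, and the Benjamini-Hochberg adjusted p over all genes was 0.138. This is also the lowest adjusted p that 1 gene alone can reach with this number of permutations, so the adjusted values cannot single out a gene at 0.05. The permutation p for rho was 7e-05, with an adjusted p of 0.967. Over all genes 348 had an unadjusted p under 0.05 for r. Without Saline heart 1 and STING-/-+CDDP heart 2, the hearts farthest from the Arntl median, r of Npas2 was 0.89, and for deviations from the group means it was 0.92.

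Of the other 8 genes, 7 had a negative r with Arntl. The most negative were Nr1d2, with r of -0.69 and rho of -0.57 (permutation p 0.0130 and 0.0559), Ciart, with -0.67 and -0.57 (0.0188 and 0.0588), and Dbp, with -0.60 and -0.62 (0.0388 and 0.0353). The adjusted p was 1.00 for each of the 3 in both measures. Per3, Nr1d1, Per2 and Per1 followed at r of -0.53, -0.51, -0.43 and -0.38 (permutation p 0.0749, 0.0892, 0.168 and 0.221), with rho of -0.42, -0.51, -0.042 and -0.16 (0.177, 0.0924, 0.905 and 0.620). Without the 2 hearts farthest from the Arntl median, r was -0.53 for Dbp, -0.42 for Nr1d1, -0.38 for Ciart, -0.31 for Nr1d2 and -0.16 for Per3, and it turned to 0.21 for Per2 and 0.069 for Per1, and leaving out Saline heart 1 alone already turned them to 0.28 and 0.090, so the negative r of Per1 and Per2 rested on that heart. CDDP heart 1 was the lowest of its group in genes of both arms. Without it r was -0.82 for Dbp, -0.80 for Ciart, -0.75 for Per3, -0.74 for Nr1d2, -0.63 for Nr1d1, -0.52 for Per2 and -0.40 for Per1, each more negative than over the 12 hearts. That heart was singled out by clock values that go against the opposition. Leaving it out therefore favours a more negative r, and no conclusion is drawn from this. Without Saline heart 2 r was -0.60 for Dbp, -0.67 for Ciart and -0.51 for Nr1d1. For deviations from the group means r was -0.58 for Dbp, -0.55 for Nr1d2, -0.41 for Ciart, -0.38 for Per3, -0.27 for Per2, -0.13 for Per1 and -0.098 for Nr1d1. Cry1 had an r of 0.31 and a rho of 0.24 (permutation p 0.322 and 0.458), and an r of -0.00030 within the groups. Clock had an r of 0.57 over the 12 hearts and 0.87 for deviations from the group means, and Nfil3, a repressor at D-boxes, an r of 0.61.

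The genes with the next highest r after Npas2 were Soga1 (0.86), Uaca (0.85), Rhox5 (0.83), Ypel2 (0.82) and Dctpp1 (0.81). Among those with the lowest r were AI839979 (-0.83), Tcap (-0.75), Coq10b (-0.74) and Ppp1r3a (-0.74). The 5 of high r were the genes ranked 2 to 6 of 13814, and likeness over 12 hearts says nothing of a shared function.

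**Figure D4:**
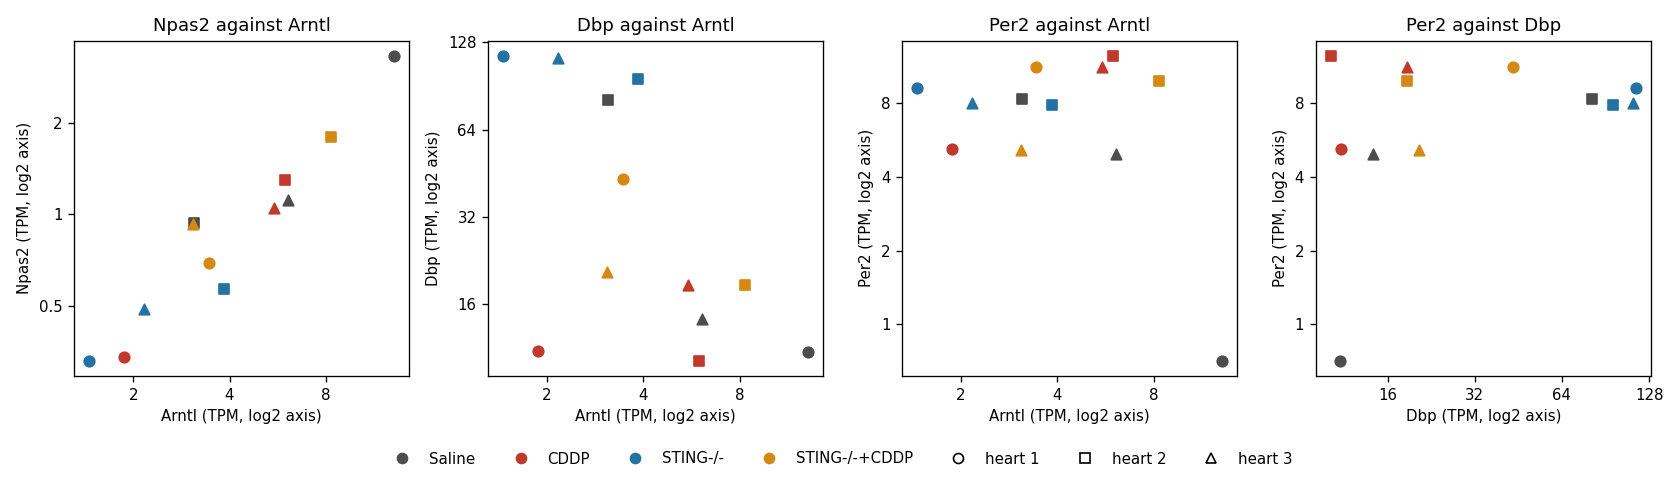
TPM of 1 clock gene against another (both axes log2) in each of the 12 hearts, coloured by group and shaped by the heart's number. Npas2 rises along with Arntl over all groups (r of 0.94), Dbp lies mostly opposite to Arntl (r of -0.60), and Per2 shows no order against Arntl apart from Saline heart 1.

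With cisplatin in wild-type mice, Per1 was the clock gene that rose. Its mean TPM was 25.5 ± 5.38 (SD, n = 3) in the CDDP group and 13.2 ± 4.97 in the Saline group, a ratio of 1.94. The log2 fold change was 0.94 with a standard error of 0.26 (adjusted p = 0.0270, limma, Benjamini-Hochberg over all genes tested). This was 1 of the 10 genes, while 18.9% of all genes tested passed in this comparison, so the share is below the background. At an unadjusted p under 0.05 it was again 1 of 10, against 33.9% of all genes. The groups did not overlap for 2 of the 10, Per1 and Cry1, against 32% of all genes, and 14.9% with the CDDP group higher. The log2 fold changes of the other genes were 1.14 for Per2 (standard error 0.53, adjusted p = 0.151 by limma), 0.81 for Ciart, 0.62 for Nr1d2, 0.38 for Nr1d1, 0.33 for Per3, 0.28 for Cry1, -0.50 for Npas2, -0.55 for Arntl and -0.83 for Dbp. Those of Arntl and Npas2 ran from -0.98 and -0.71 without Saline heart 2 to -0.089 and -0.13 without Saline heart 1, and were -0.14 and -0.27 without CDDP heart 1. That of Nr1d1 fell to 0.086 without Saline heart 3, and that of Cry1 to 0.13 without CDDP heart 3. The median over the 10 genes was 0.36, and over all genes -0.0032. The call of Per1 was lost without Saline heart 1, Saline heart 3, CDDP heart 2 or CDDP heart 3 (adjusted p up to 0.109 by limma), with no filter on low values (0.0597) and with only the 6 hearts compared in the fit (0.0986). Without Saline heart 2 the genes that passed were Per1 (1.21, adjusted p = 0.00778 by limma), Per2 (1.66, 0.0405) and Nr1d2 (1.11, 0.0266), against 18.4% of all genes under that setting. Without Saline heart 2 and CDDP heart 1 there were 5, Per1, Per2, Per3, Nr1d2 and Ciart, against 19.4% of all genes. Dbp was at 0.036 without Saline heart 2 and at 0.14 without both. With the mean of the 4 atrial genes as a covariate it was at -1.52 and passed (adjusted p = 0.00363 by limma), so its value depended on the setting. Per3 was at 0.80, Nr1d1 at 0.84 and Ciart at 1.19 without Saline heart 2, and none of the 3 passed. Leaving out Saline heart 1 moved the values the other way, to 0.43 for Per2, 0.17 for Nr1d2, 0.42 for Ciart, -0.038 for Per3, 0.70 for Per1 and -1.36 for Dbp, and 0 of the 10 passed.

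Cry2, Csnk1d, Csnk1e and Por were the other clock genes that rose with cisplatin in wild-type mice. Of 16 further clock genes, 15 were tested, Rorb being too low, and 4 of the 15 passed, all higher, against 18.9% of all genes called in either direction and 8.52% called higher. The other 11 did not pass, and 5 of the 15 had a negative log2 fold change. Cry2, the second cryptochrome repressor, was at a TPM of 7.25, 11.8 and 8.61 in the Saline group and 15.5, 22.9 and 28.1 in the CDDP group, without overlap (log2 fold change 1.17 with a standard error of 0.23, adjusted p = 0.00639 by limma). The kinase genes Csnk1d (0.65, adjusted p = 0.0290 by limma) and Csnk1e (0.59, 0.0215), whose products phosphorylate PER proteins, were higher as well. Por, the electron donor of cytochrome P450 enzymes and a rhythmic output gene, had the largest of these changes (1.46, adjusted p = 0.0105 by limma). The median log2 fold change over the 15 genes was 0.42.

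Per1 can also be induced outside the loop, through glucocorticoid receptor and through immediate-early signals, and genes of both kinds were read beside it. All 5 immediate-early genes listed, Fos, Fosb, Egr1, Junb and Nr4a1, passed and were higher with CDDP, against the same 18.9% and 8.52% of all genes, with Junb at a TPM of 19.6, 24.6 and 19.1 in the Saline group and 212.5, 63.5 and 127.4 in the CDDP group (log2 fold change 2.46 with a standard error of 0.35, adjusted p = 0.00135 by limma). Of 5 glucocorticoid-responsive genes, 2 passed, Fkbp5 (2.55, adjusted p = 0.0279 by limma) and Sgk1 (0.87, 0.0450), both higher, against the same shares. Fkbp5 was at 2.76, 39.7 and 34.3 in the Saline group and at 72.1, 107.3 and 137.0 in the CDDP group. Saline heart 1, the lowest of 12 in Per1, was also the lowest of 12 in Fkbp5, Zbtb16, Klf9 and Tsc22d3, with a Zbtb16 of 2.17 against 21.9 to 50.9 in the other 11 hearts. Sgk1 did not show this, being at 61.1 to 63.2 in the Saline group and lowest, at 48.2, in the STING-/- group. Whether these inputs have a part in the Per1 difference was not tested. Of 6 cardiac genes under clock control (Klf15, Kcnip2, Kcnh2, Pik3r1, Dgat2 and Nampt), 1 passed, Nampt, the rate-limiting enzyme of NAD salvage (0.66, adjusted p = 0.0435 by limma), while 18.9% of all genes passed and 8.52% passed as higher. Klf15, a regulator of cardiac metabolism, was at 18.8, 38.5 and 41.7 in the Saline group and 29.6, 89.3 and 91.5 in the CDDP group (0.98, adjusted p = 0.103 by limma). The hemoglobin genes and Alas2 were all lower with CDDP, and their summed TPM was 4146 to 9317 in the Saline group and 42.0 to 1271 in the CDDP group, and the part of this difference in the clock values was not tested. Of 6 cardiomyocyte genes, Actc1 was lower (-3.55, adjusted p = 0.00181 by limma) and Tnnt2 higher (0.56, 0.0137) with CDDP, and 4 did not pass, against the same 18.9% of all genes. Their part in the clock values was not tested either.

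Without cisplatin, loss of STING left 0 of the 10 clock genes past the threshold, and the largest differences were in Dbp, Ciart and Nr1d1. Over all genes 0.0724% passed in this comparison, which was 10 genes. At an unadjusted p under 0.05 there were 8 of the 10 clock genes, all but Per2 and Per3, against 3.69% of all genes. The groups did not overlap for 6 of the 10, against 7.64% of all genes. Per1, Nr1d1, Dbp and Ciart were the 4 higher ones in the STING-/- group (2.76% of all genes), and Npas2 and Cry1 the 2 lower ones (4.88%). Mean TPM of Dbp was 107.9 ± 10.6 (SD, n = 3) in the STING-/- group and 35.4 ± 39.6 in the Saline group (log2 fold change 2.14 with a standard error of 0.59, adjusted p = 0.674 from limma, Benjamini-Hochberg). Mean TPM of Nr1d1 was 65.0 ± 17.1 against 19.3 ± 12.1 (1.83, standard error 0.38, adjusted p = 0.192 by limma). Mean TPM of Ciart was 11.0 ± 2.41 against 2.62 ± 1.86 (1.84, standard error 0.40, adjusted p = 0.237 by limma). The log2 fold changes were -1.14 for Arntl, -0.84 for Npas2 and -0.62 for Cry1, so the positive arm and the output genes had opposite signs. For the remaining genes they were 1.03 for Per2, 0.95 for Nr1d2, 0.71 for Per1 and 0.66 for Per3. Of the 15 other clock genes 0 passed and 3 had an unadjusted p under 0.05. These were the E-box repressors Bhlhe40 (0.85) and Bhlhe41 (0.73) and Nfil3 (-0.80), which competes with DBP at D-boxes.

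This comparison turned on the Saline hearts. Without Saline heart 2, Dbp (3.01, adjusted p = 0.00915 by limma) and Nr1d1 (2.28, adjusted p = 0.0232) passed, against 0.0796% of all genes under that setting, and Ciart was at 2.23 (adjusted p = 0.0655). Without it Arntl was at -1.57, Npas2 at -1.05, Per2 at 1.55, Per3 at 1.14, Nr1d2 at 1.44 and Per1 at 0.97, and none of these passed. Without Saline heart 1 the changes were smaller, at -0.68 for Arntl, -0.47 for Npas2, 0.32 for Per2, 0.30 for Per3, 0.49 for Nr1d2, 0.47 for Per1, 1.62 for Dbp and 1.45 for Ciart, and 0 of the 10 passed. Without Saline heart 2 and CDDP heart 1, Ciart passed too (adjusted p = 0.0396 by limma), against 0.232% of all genes. The atrial sum was at least 2994 in Saline heart 2 and in all STING-/- hearts and at most 338.7 in the other Saline hearts. CDDP heart 3, with a sum of 14621 and a Dbp of 18.6, was the highest of its group in both. STING-/-+CDDP heart 1, at 9025 and 43.3, was the highest of its group in both as well. STING-/- heart 2 had the highest sum of its group, 12835, with the lowest Dbp, 95.8. The part of atrial content in these differences was not tested, and the covariate fit that follows was chosen after seeing the data. With the mean of the 4 atrial genes as a covariate the log2 fold changes were 1.22 for Dbp, 1.26 for Nr1d1 and 1.39 for Ciart, and none passed (adjusted p = 0.187, 0.0789 and 0.284 by limma). Under the covariate Per3 was at 0.17, Nr1d2 at 0.41, Per2 at 0.54, Per1 at 0.44, Arntl at -0.81 and Npas2 at -0.62, each nearer to 0, and Cry1 at -0.70. Adipocyte genes summed to between 11.7 and 60.9 in the STING-/- group and to 0.76, 19.7 and 0.16 in the Saline group, led by Cidec, Adipoq or Ucp1. None of the 3 adipocyte genes tested passed, all 3 had an unadjusted p under 0.05, Plin1 was at 0 in Saline heart 3 and Ucp1 in 6 hearts, and their part in the result was not tested. The hemoglobin genes and Alas2 summed to 264 to 1466 in the STING-/- group, below every Saline heart.

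Between the STING-/-+CDDP and CDDP hearts, 0 of the 10 clock genes passed, against 1.22% of all genes (0.0796% to 2.81% with 1 heart left out). At an unadjusted p under 0.05 there was 1, Cry1, against 19.8% of all genes, and the groups did not overlap for the same gene, against 22.7% of all and 15.6% with the lower values in the STING-/-+CDDP group. Mean TPM of Cry1 was 5.37 ± 1.34 (SD, n = 3) in the STING-/-+CDDP group and 8.72 ± 1.78 in the CDDP group (log2 fold change -0.61 with a standard error of 0.19, adjusted p = 0.124 from limma, Benjamini-Hochberg). The log2 fold change of Cry1 between STING-/- and Saline hearts was -0.62 with the same standard error (adjusted p = 0.934 by limma). These comparisons share no hearts. Per1, at -0.39, and Dbp, at 0.94, did not pass (adjusted p = 0.434 and 0.404 by limma), although Dbp passed with the atrial covariate (1.23, adjusted p = 0.0305), against 2.82% of all genes under that setting. With 1 heart left out Per1 ran from -0.57 to -0.19 and Dbp from 0.57 to 1.20, and neither passed. Without CDDP heart 1 the log2 fold changes of Arntl, Per3 and Per2 moved from 0.12, 0.079 and -0.11 to -0.29, -0.20 and -0.46. The median over the 10 genes was -0.014, against -0.095 over all genes. Of the 15 other clock genes 0 passed and 4 had an unadjusted p under 0.05, all lower, namely Cry2 (-0.74), Por (-0.80), Csnk1d (-0.60) and Csnk1e (-0.34). Of the immediate-early genes Egr1 (-2.18, adjusted p = 0.0452 by limma) and Nr4a1 (-2.55, adjusted p = 0.0216) fell, 2 of 5 against 0.854% of all genes called lower. The CDDP hearts enter both this comparison and that with Saline, so the pair of comparisons is not independent.

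With cisplatin in STING-/- mice, 0 of the 10 clock genes passed, against 0.934% of all genes (0.109% to 1.47% with 1 heart left out). At an unadjusted p under 0.05 there were 3, Nr1d1, Dbp and Ciart, against 13.5% of all genes, and for 5 genes the groups did not overlap, against 24.2%. Nr1d1, Nr1d2, Dbp and Ciart were lower in every STING-/-+CDDP heart than in every STING-/- heart, and Npas2 was higher in every one, against 16.9% and 7.28% of all genes in these directions. Marker genes of cell types moved in both directions in this comparison. All 5 erythroid genes had an unadjusted p under 0.05 (median log2 fold change -2.44), with sums of 1266, 1466 and 264 in the STING-/- group and 101, 81.9 and 311 in the STING-/-+CDDP group. Of the 3 adipocyte genes tested, Adipoq and Plin1 did not overlap (median -1.11 over the 3), and all 4 atrial genes had a negative log2 fold change (median -2.10) with overlap. The 3 neutrophil genes tested all had positive log2 fold changes (median 0.94). Of the cardiomyocyte genes, Actc1 (-1.66) and Ryr2 (-0.76) were lower and Tnnt2 (0.24) was higher without overlap. None of these markers passed, and the part of the erythroid, adipocyte, neutrophil and cardiomyocyte genes in the result was not tested. Mean TPM of Dbp was 27.5 ± 13.7 (SD, n = 3) with cisplatin and 107.9 ± 10.6 without (log2 fold change -2.03 with a standard error of 0.59, adjusted p = 0.146 from limma, Benjamini-Hochberg). Nr1d1 was at 24.9 ± 5.36 against 65.0 ± 17.1 (-1.34, adjusted p = 0.131 by limma) and Ciart at 4.03 ± 2.03 against 11.0 ± 2.41 (-1.30, adjusted p = 0.164). The log2 fold changes of Per1 and Per2 were -0.16 and 0.0020. Of the 15 other clock genes 0 passed and 1 had an unadjusted p under 0.05, Bhlhe41 (-0.77). Dbp and Nr1d1 passed when only the 6 hearts compared were fitted (adjusted p = 0.0280 and 0.0392 by limma), without Saline heart 2 in the fit (0.0166 and 0.0474) and with the atrial covariate, under which they were at -1.51 and -1.02 (0.0271 and 0.0298). The shares of all genes called under these settings were 1.48%, 0.992% and 1.32%.

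Whether cisplatin changed the clock genes differently in the 2 genotypes was tested as an interaction in the same model, and 0 of the 10 genes passed, against 0.00724% of all genes, which was 1 gene. At an unadjusted p under 0.05 there were 5, against 11.7% of all genes. The differences of the log2 fold changes, STING-/- minus wild type, were -2.11 for Ciart (standard error 0.57, adjusted p = 0.308 from limma, Benjamini-Hochberg), -1.72 for Nr1d1 (0.53, adjusted p = 0.324 by limma), -1.44 for Nr1d2, -1.10 for Per1 and 1.02 for Npas2. For Dbp the difference was -1.20 with a standard error of 0.83, and for Cry1 it was 0.0021 with a standard error of 0.27. The smaller response of Per1 to cisplatin in STING-/- mice, -0.16 against 0.94, is thus not shown to differ between the genotypes after adjustment. All 4 groups enter this contrast, Saline heart 2 included, and without that heart 0 of the 10 genes passed again, with Dbp at -2.07, Per3 at -1.06, Per2 at -1.66 and Arntl at 1.70. With all hearts Per3 was at -0.58, Per2 at -1.14 and Arntl at 1.27, and without Saline heart 1 Dbp was at -0.67, Per3 at -0.22, Per2 at -0.43 and Arntl at 0.81, and 0 of the 10 passed. With the atrial covariate the signs of Dbp and Per3 turned, to 0.0080 and 0.069.

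**Figure D5:**
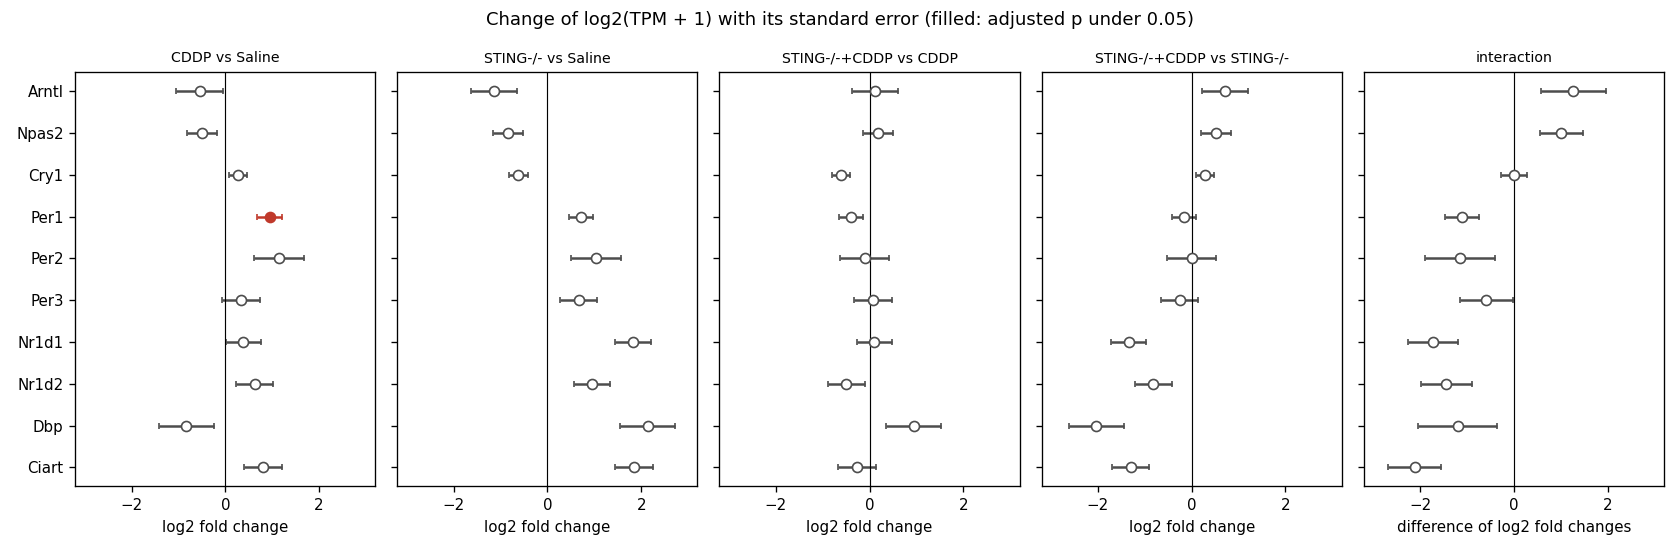
Log2 fold change of log2(TPM + 1) with its standard error (horizontal axis) for the 10 clock genes (rows) in each comparison (panels, the last being the difference between the responses to cisplatin in STING-/- and wild-type mice), with filled points for an adjusted p under 0.05. Per1 with CDDP against Saline is the 1 filled point, and Dbp, Nr1d1 and Ciart lie on the right for STING-/- against Saline and on the left for STING-/-+CDDP against STING-/-.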

How the data were processed

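RNA from cardiac tissues of 12 mice was analysed in 4 groups, taken from the genotype and treatment labels. Hearts without cisplatin are untreated per the labels and saline-injected per the methods. The values deposited by the authors are TPM with 2 decimals, and 4 columns of group means that were not used. The submitters' processing notes name fastp, HISAT, RSEM and GRCm38.p5, and versions are not given in the sources used here. Depth is unknown, so no counting intervals or floors are given.

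Values were transformed to log2(TPM + 1), which understates the change of low genes, and the genes reaching a TPM of 1 in 3 or more hearts were tested. A model with a mean per group was fitted to all 12 hearts by limma (version 3.58.1, R 4.3.3) with trended eBayes moderation and 8 residual degrees of freedom, two-sided, with Benjamini-Hochberg adjustment over 13815 genes and a threshold of 0.05. The study's methods give this threshold and no model. With 3 hearts a group the smallest exact permutation p is 0.10, so p-values rest on the spread pooled over groups. The procedure was tested on simulated data, and no outcome of that test is given or used here. Correlations used 100000 permutations (scipy 1.17.1, numpy 2.4.6). Positions came from GENCODE M21 (GRCm38) and promoters from RefSeq.

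The members and lists were chosen with earlier results of these data known. Named were the 10 members, the fixed lists, and the 5 genes most and least like Arntl, and 4 genes that this rule names are not reported here and were left out of the lists. Promoters with an E-box or D-box are printed. Hearts of the same number are different animals, and of 18 pairs of the same number 4 had deviations correlated above 0.1 (range -0.33 to 0.26), so the numbers were not taken as pairs. Alternatives changed the pseudocount (0.1), the filter (none, or a TPM of 5), the scaling (median of ratios, or leaving mitochondrially encoded genes out of the TPM) and the trend (eBayes without it), or used a replicate block, only the compared groups in the fit, and each heart left out in turn. The atrial covariate and the fit without Saline heart 2 and CDDP heart 1 were chosen after seeing the data.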

Additional observations from a re-analysis of the deposited data

How the results depend on the processing

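The number of clock genes called was 1 for CDDP against Saline and 0 in the other 4 comparisons. With the replicate block, a pseudocount of 0.1, a filter at a TPM of 5, median-of-ratios scaling, TPM without mitochondrially encoded genes and eBayes without a trend these 5 counts were again 1, 0, 0, 0 and 0. Npas2, with a median TPM of 0.935 and a highest of 3.33, was not tested under the filter at a TPM of 5. The replicate block changed no call of a clock gene. For CDDP against Saline the count was 0 with no filter and with only the compared groups, 2 with the atrial covariate (Per1 and Dbp, against 20.8% of all genes) and 5 without Saline heart 2 and CDDP heart 1 (19.4%). For STING-/- against Saline it was 3 without these 2 hearts (0.232% of all genes), and for STING-/-+CDDP against CDDP 1 with the atrial covariate (2.82%). For STING-/-+CDDP against STING-/- it was 2 with only the compared groups (1.48%), with the atrial covariate (1.32%) and without these 2 hearts (1.87%). Leaving out 1 heart at a time gave counts of 0 to 3, 0 to 2, 0 to 0, 0 to 2 and 0 to 0 in the order CDDP against Saline, STING-/- against Saline, STING-/-+CDDP against CDDP, STING-/-+CDDP against STING-/- and interaction, and the highest counts came without Saline heart 2. A heart left alone with 1 other in its group was assumed to vary like the other groups. The count of 7 negative r with Arntl ranged from 5 to 7 with 1 heart left out. For deviations from group means Cry1 (-0.00030) was negative in addition to these 7.

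Signs turned for values near 0 and for larger ones, among them the interactions of Dbp (-1.20) and Per3 (-0.58), Dbp (-0.83), Nr1d1 (0.38) and Per3 (0.33) for CDDP against Saline, and the r of Per2 (-0.43), Per1 (-0.38) and Cry1 (0.31) with Arntl. With the atrial covariate the log2 fold changes of Per3 and Nr1d1 for CDDP against Saline were -0.045 and -0.043, that of Per2 for STING-/-+CDDP against CDDP was 0.045, that of Per3 for STING-/-+CDDP against STING-/- was 0.023, and the interactions of Per3 and Dbp were 0.069 and 0.0080. Without Saline heart 2 and CDDP heart 1 Dbp was at 0.14 for CDDP against Saline, Arntl, Npas2, Per3 and Nr1d1 at -0.29, -0.055, -0.20 and -0.0030 for STING-/-+CDDP against CDDP, and the interaction of Cry1 at -0.054. Per2 for STING-/-+CDDP against STING-/- was -0.00596 with a pseudocount of 0.1. The r of Per1 and Per2 with Arntl was 0.069 and 0.21 without the 2 hearts farthest from its median, and that of Cry1 was -0.00030 for deviations from group means. The cause was not tested.

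With 1 heart left out, signs turned for Per3 (-0.038 to 0.80) and Dbp (-1.36 to 0.036) for CDDP against Saline, Arntl (-0.29 to 0.35), Npas2 (-0.055 to 0.33), Per2 (-0.46 to 0.20), Per3 (-0.20 to 0.34), Nr1d1 (-0.079 to 0.39) and Ciart (-0.58 to 0.0031) for STING-/-+CDDP against CDDP, Per1 (-0.27 to 0.039) and Per2 (-0.19 to 0.31) for STING-/-+CDDP against STING-/-, the interaction of Cry1 (-0.15 to 0.16), and the r of Per1 (-0.49 to 0.090) and Per2 (-0.54 to 0.28) with Arntl.

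Over all genes, the calls for CDDP against Saline were 2610 (45.1% higher), 3810 (50.2% higher) with median-of-ratios scaling and 822 with only the compared groups. For STING-/-+CDDP against CDDP they were 168 (29.8% higher), 651 (42.2%) with that scaling, 287 (39.4%) without mitochondrially encoded genes, 67 with the replicate block, 38 with only the compared groups and 12 with no filter. For STING-/-+CDDP against STING-/- they were 129 (27.1%), 251 (51.0%), 193, 114, 204 and 46. With 1 heart left out the calls for CDDP against Saline fell to 1241 without Saline heart 1 and 1736 without Saline heart 3. Those for STING-/-+CDDP against CDDP ran from 11 without STING-/-+CDDP heart 2 to 388 without CDDP heart 2, and were at most 82 without any 1 of the other CDDP, STING-/- or STING-/-+CDDP hearts. Those for STING-/-+CDDP against STING-/- ran from 15 without STING-/- heart 1 to 203 without CDDP heart 1, and were at most 48 without any 1 STING-/- or STING-/-+CDDP heart. Those for STING-/- against Saline (10) ran from 3 to 14, and for the interaction (1) from 1 to 15. That scaling moved the median log2 fold change of all genes from -0.095 and -0.11 to 0.0036 and 0.0080. The depth is unknown, and with 3 hearts a group a typical (median) standard error between groups was 0.216, which limits what could be detected.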
